A study of Bos taurus with 48 samples.

Results

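S100B (ENSBTAG00000004777) is 1 of 24616 gene rows in the count tables, and its row was followed through all 48 samples by diet, sampling time and genetic group, with the 2 samples of each heifer paired by heifer number. The gene was chosen for its energy contrast at 12 months, where it had the smallest p-value of 13339 genes tested, so its values by energy level at that age, and everything computed from them by energy level, are given below as a description without a test. The contrasts that the choice did not use are those within gestation, the protein contrast, the genetic group contrast and the mean difference between the sampling times. That mean difference is balanced over energy level, but the levels at 12 months enter it.

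S100B is a small calcium-binding protein of the S100 family that works as a dimer. It is best known from astrocytes and Schwann cells, where it serves as a marker, but adipocytes make it as well. Inside cells it binds cytoskeletal and regulatory proteins in a calcium-dependent manner, and when released it can act on other cells through the receptor AGER (RAGE). In fat, its release has been linked to sympathetic nerve growth into the tissue and to hormones that act on lipolysis.

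Each of 24 Norwegian Red heifers gave a biopsy of subcutaneous adipose tissue at an age of 12 months and a second biopsy in month 7 of gestation. From 3 months of age the heifers received 1 of 4 diets that combined a low or high protein level (LP, HP) with a low or high energy level (LE, HE). This gave the diets LPHE, HPHE, LPLE and HPLE. Each diet had 6 heifers, of which 3 were bred for milk yield (HMY, high milk yield) and 3 against mastitis (LCM, low clinical mastitis), the 2 genetic groups. Once breeding had succeeded, all heifers had free access to the same low-energy feed, so the diets compared in gestation were earlier diets. Breeding was tied to body weight, and the slower growing LE heifers were therefore older in month 7 of gestation than the HE heifers. Age, gestation and the change of feed all lay between the sampling times and cannot be told apart. The samples are whole tissue taken lateral to the tail base, in which fewer cells that express a gene and less RNA per cell cannot be told apart.

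Reads on genes numbered 14815595 to 61027456 per sample (median 32166717 at 12 months, 43293433 in gestation). S100B received 1789 to 23308 reads in each sample, so its counting error was at most 2.36% of its value and the spread between heifers set the precision. Levels are given as TMM-normalized CPM, the count of a gene scaled to a common library size. The adipocyte genes LEP (leptin) and CIDEC (a lipid droplet protein) were read in every sample, from 78.1 CPM for LEP and from 806 CPM for CIDEC. Skeletal muscle genes stood out in a few biopsies: the summed level of 4 of them ranged from 0.518 to 108 CPM in HE and from 0.422 to 112 CPM in LE heifers at 12 months, with medians of 0.851 and 4.92 CPM. Their part in the values of S100B was not tested, but each heifer was left out in turn, which gave the ranges stated in the closing section.

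At 12 months S100B was high in the heifers on both HE diets and low in those on both LE diets. In LPHE heifers the level ranged from 241 to 613 CPM with a median of 439 (mean 423 ± 139 SD, n = 6). In HPHE heifers it ranged from 328 to 499 CPM with a median of 423 (mean 409 ± 65.4). The HPHE heifers thus lay within the wider range of the LPHE heifers. In HPLE heifers the level ranged from 85.4 to 259 CPM with a median of 190 (mean 182 ± 57.9, n = 6). In LPLE heifers it ranged from 77.5 to 184 CPM with a median of 133 (mean 129 ± 41.9). No heifer of an LE diet reached the lowest heifer of the HE diet with the same protein level. Over both protein levels the groups of 12 touched, since the lowest HE heifer, an LPHE heifer at 241 CPM, lay below the highest LE heifer, an HPLE heifer at 259 CPM.

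The fitted HE-LE difference overall at 12 months was 1.44 on the log2 scale (SE 0.172), a 2.71-fold higher level in HE heifers. It was 1.69 (SE 0.245) for LPHE-LPLE and 1.19 (SE 0.242) for HPHE-HPLE, and these differed by 0.50 (SE 0.338). For reference, HE-LE overall at 12 months had a false discovery rate (FDR) under 0.05 for 960 of 13339 genes (7.2%), a share from which nothing is read for S100B because the gene was chosen by this contrast.

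In month 7 of gestation the levels of the 4 diets lay over each other. In LPHE heifers S100B ranged from 97.2 to 270 CPM with a median of 152 (mean 165 ± 67.0, n = 6). In LPLE heifers it ranged from 100 to 264 CPM with a median of 193 (mean 183 ± 58.7). In HPHE heifers it ranged from 113 to 258 CPM with a median of 156 (mean 179 ± 62.4), and in HPLE heifers from 126 to 269 CPM with a median of 183 (mean 187 ± 51.7). Each of these ranges overlapped the other three.

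**Figure D1:**
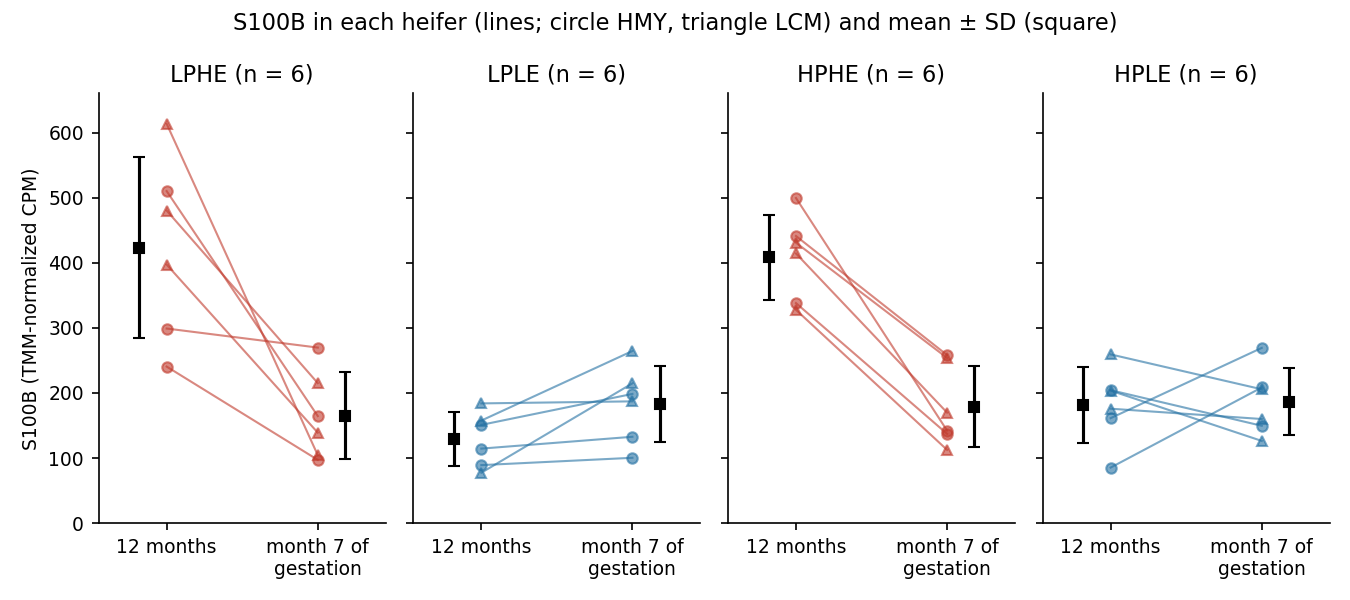
S100B in TMM-normalized CPM (vertical axis, from 0) at 12 months and in month 7 of gestation, 1 panel per diet; each line is 1 heifer (circles HMY, triangles LCM; red HE diets, blue LE diets) and black squares with bars are the mean ± SD of 6 heifers. All 12 lines of HE heifers slope down, from 241 to 613 CPM at 12 months to 97.2 to 270 CPM in gestation, while the lines of LE heifers start at 77.5 to 259 CPM and go either way.

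The energy contrast in gestation, which asks whether the earlier energy level was still visible in S100B under a shared feed, was not significant. HE-LE overall was -0.09 on the log2 scale (SE 0.182, 95% interval -0.45 to 0.26, FDR = 0.863 in the likelihood ratio test of edgeR), with means of 172 ± 62.1 CPM in HE and 185 ± 52.8 CPM in LE heifers (n = 12 each; permutation test of log2 levels, two-sided p = 0.501). In that contrast 501 of 13403 genes (3.74%) were called, and 70.3% of all genes had a smaller p-value than S100B. LPHE-LPLE was -0.13 (SE 0.259, 95% interval -0.64 to 0.38, FDR = 0.940) and HPHE-HPLE -0.06 (SE 0.258, 95% interval -0.56 to 0.45, FDR = 1.0). Exact two-sided permutation tests over 6 heifers against 6 gave p = 0.578 and p = 0.749. A log2 difference of 0.375 in either direction lies within both intervals and could not be told from 0 with these heifers. The energy contrasts of both protein levels differed by -0.08 (SE 0.366, FDR = 1.0).

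The protein level and the genetic group showed no called difference in S100B at either time. HP-LP overall was 0.23 (SE 0.168, 95% interval -0.10 to 0.56, FDR = 1.0) at 12 months, when it was called for 0.0225% of genes, and 0.08 (SE 0.183, 95% interval -0.28 to 0.44, FDR = 1.0) in gestation. HMY-LCM was -0.29 (SE 0.169, 95% interval -0.62 to 0.04, FDR = 0.601) at 12 months, when it was called for 0.0075% of genes. The means at that age were 388 ± 112 CPM in HMY and 444 ± 96.7 CPM in LCM heifers of the HE diets, and 134 ± 46.3 CPM and 176 ± 59.7 CPM in those of the LE diets (n = 6 each), so the LCM mean was the higher one at both energy levels by less than the larger SD. In gestation HMY-LCM was -0.02 (SE 0.184, FDR = 0.999). The HE-LE difference of HMY heifers exceeded that of LCM heifers by 0.25 (SE 0.356, FDR = 1.0) in gestation, which was not called. At 12 months it did so by 0.18 (SE 0.337), a description without a test since it is built from the energy values of that age.

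**Figure D2:**
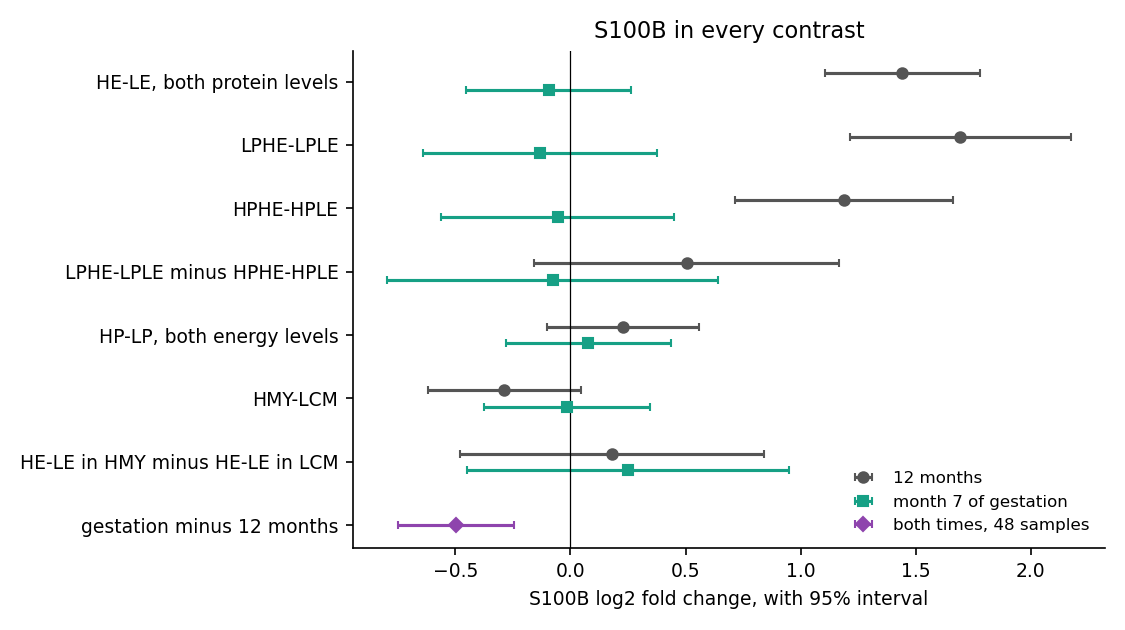
Fitted log2 fold change of S100B (horizontal axis) with its 95% interval in each contrast at 12 months (grey circles) and in month 7 of gestation (green squares), and between the times over all 48 samples (purple diamond). The 3 energy contrasts at 12 months, which chose the gene, lie between 1.19 and 1.69, those of gestation between -0.13 and -0.06, and the intervals of the protein and genetic group contrasts all include 0.

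Averaged over the 4 diets, S100B was lower in gestation than at 12 months. The difference was -0.50 on the log2 scale (SE 0.128, 95% interval -0.75 to -0.24, FDR = 6.70e-04), in a contrast that called 5126 of 13718 genes (37.4%), 2655 of them lower (19.4%). This fit did not pair the samples of a heifer. For S100B the closing section gives the fit with the heifer as a block, which had a larger FDR. The differences between the times given below for other genes come from the unpaired fit only. Over the 24 heifers the mean within-heifer change was -0.51 ± 1.03 (SD), with a fall in 16 heifers and a rise in 8 (paired permutation test, two-sided p = 0.0235). This mean joined unlike movements and describes neither energy level: the mean log2 change was -1.31 in HE heifers and 0.29 in LE heifers.

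The within-heifer changes went in different directions by diet, which is described and not tested since the levels at 12 months enter them. S100B fell in 12 of 12 HE heifers. In LPHE heifers the log2 change ranged from -2.55 to -0.15 (mean -1.38 ± 0.777) and in HPHE heifers from -1.81 to -0.76 (mean -1.24 ± 0.416). It was higher in gestation in 6 of 6 LPLE heifers, by 0.02 to 1.47 (mean 0.50 ± 0.533), while in HPLE heifers 2 values were higher and 4 were lower (mean 0.07 ± 0.770). The heifer with the highest level at 12 months, an LPHE heifer of LCM at 613 CPM, had 104 CPM in gestation, and the heifer with the lowest, an LPLE heifer of LCM at 77.5 CPM, had 215 CPM.

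In order of the mean level the 8 groups ran from LPHE and HPHE at 12 months through HPLE and LPLE in gestation, HPLE at 12 months, HPHE and LPHE in gestation to LPLE at 12 months. Neighbours in this order differed by less than the larger of their SDs and had overlapping ranges, except at 1 step: HPHE heifers at 12 months lay 222 CPM above HPLE heifers in gestation, without overlap. The SD of log2 levels within diets was 0.462 at 12 months and 0.496 in gestation. The coefficient of variation of HPHE heifers was 16% at 12 months and 34.9% in gestation. Their SD was 65.4 and 62.4 CPM, so this rise came with the lower mean. In the other diets the coefficient was 32.8% and 40.6% (LPHE), 32.5% and 32.1% (LPLE), and 31.9% and 27.7% (HPLE).

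A heifer that was high for its energy level at 12 months was not detectably high in gestation. Across the 12 HE heifers the log2 levels of the 2 times had a Pearson r of 0.13 (permutation p = 0.693) and a Spearman rho of 0.11 (p = 0.735), and across the 12 LE heifers an r of 0.10 (p = 0.757) and a rho of -0.17 (p = 0.589). Adjusted over the 2 energy levels the p-values of r were both 0.757. Without the 2 heifers farthest from the median at 12 months, r was 0.08 in HE (permutation p = 0.817) and 0.43 in LE heifers (permutation p = 0.220), over 10 heifers each. No r was taken over both energy levels, because these lay apart at 12 months.

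**Figure D3:**
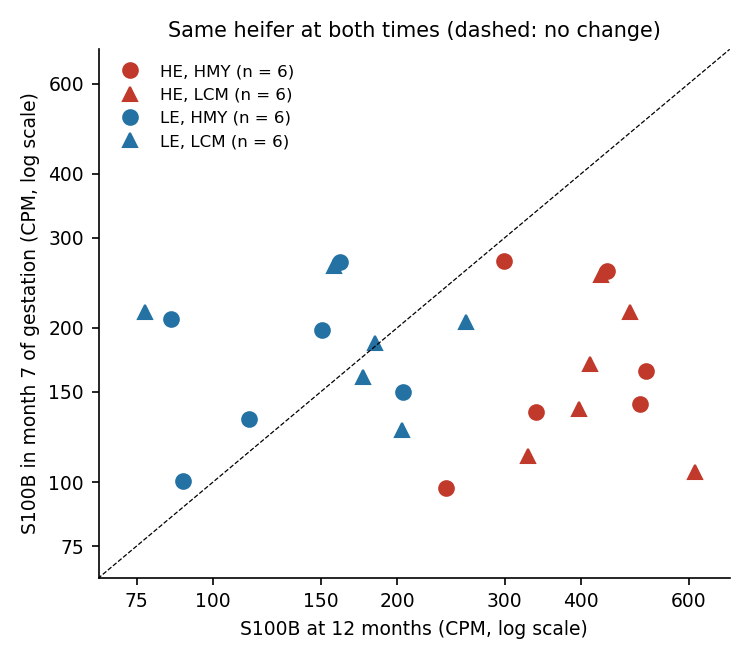
S100B of each heifer at 12 months (horizontal axis) against month 7 of gestation (vertical axis), both in CPM on log scales, with HE heifers in red, LE heifers in blue, HMY as circles and LCM as triangles (6 each); the dashed line marks equal levels. All HE heifers lie below the line, 8 LE heifers lie above it and 4 below, and r within an energy level is 0.13 in HE and 0.10 in LE heifers.

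Of 18 other members of the S100 family, 2 had an identifier paired with a symbol here, S100A1 and S100A10. No difference between them and S100B was tested. S100A1, a calcium sensor known from muscle, had 2.44 to 11.2 CPM in HE heifers (median 4.44) and 6.66 to 14.7 CPM in LE heifers (median 9.05) at 12 months. It was lower in HE heifers, where HE-LE overall was -0.88 (log2, SE 0.223, FDR = 0.00460). In gestation, with 7.06 to 23.7 CPM in HE and 7.19 to 22.6 CPM in LE heifers, HE-LE was 0.20 (SE 0.208, FDR = 0.708) and the mean over diets was higher than at 12 months by 0.84 (SE 0.156, FDR = 9.60e-07). S100A10, the partner of annexin A2 at the cell membrane, had 571 to 946 CPM in HE heifers (median 781) and 460 to 798 CPM in LE heifers (median 579) at 12 months. The log2 difference of 0.35 (SE 0.124) missed the threshold there (FDR = 0.0565; the quasi-likelihood F test called it, as did 4 of the 24 fits with 1 heifer left out). LPHE-LPLE of S100A10 at that age was called at the limit of 0.1 for contrasts of 2 diets (0.51, SE 0.176, FDR = 0.0695), a call lost in 8 of those 24 fits. In gestation it was 328 to 660 CPM in HE (median 483) and 490 to 896 CPM in LE heifers (median 657), and HE-LE overall was -0.51 (log2, SE 0.121, FDR = 0.00201). Both energy effects of S100A10 thus differ in sign between the times, and that difference was not tested. Averaged over the diets, S100A10 was lower in gestation, as S100B was, by a log2 difference of -0.28 (SE 0.0818, FDR = 0.00291).

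Among 11 genes listed as receptors of S100B or as ligands and signal carriers that share them, 1 had an identifier (BSG). Among 15 intracellular binding partners it was also 1 (ANXA6). Whether BSG acts as a receptor of S100B was not tested here. BSG (basigin), a membrane glycoprotein that accompanies lactate transporters, was higher in HE heifers at 12 months (2907 ± 748 against 1795 ± 442 CPM, n = 12 each; log2 fold change 0.69, SE 0.149, FDR = 5.65e-04). In gestation it was lower in HE heifers (1161 ± 542 against 1787 ± 513 CPM; -0.66, SE 0.202, FDR = 0.0378), a call that the quasi-likelihood F test did not make and that was lost in 14 of the 24 fits with 1 heifer left out. ANXA6 (annexin A6), a calcium-dependent membrane-binding protein, was higher in HE heifers at 12 months (356 ± 75.4 against 262 ± 41.6 CPM; 0.43, SE 0.129, FDR = 0.0212), a call lost in 4 of those 24 fits, and in gestation the difference was -0.28 (SE 0.107, FDR = 0.120). The genes for AGER, calsyntenin 3 and the other members of the list on thermogenic fat were not analysed here, since their identifiers were not paired with symbols. All these members with identifiers come from tables that the study chose on the samples of 12 months, so their direction at that age is not independent evidence.

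The lipogenic genes, which make fatty acids and supply their carbon and NADPH, were the list nearest to complete, with 11 of 15 members given here. At 12 months 9 of the 11 were higher in HE heifers, against 4.69% of all genes, with a median log2 fold change of 1.05 (all genes -0.03). ME1 (malic enzyme, which makes NADPH) was higher by 1.46 (SE 0.239), ELOVL6 (fatty acid elongase) by 1.28 (SE 0.216), ACSS2 (acetate activation) by 0.95 (SE 0.168) and ACACA (acetyl-CoA carboxylase) by 1.06 (SE 0.194), with FDR values from 1.44e-06 to 2.29e-05. The study picked these genes on the same samples, so this count is not independent evidence. In gestation 10 of the 11 were lower in HE heifers, against 2.66% of all genes, with a median of -1.22 (all genes 0.01). ACLY (cytosolic acetyl-CoA from citrate) was lower in HE than in LE heifers by 1.26 (SE 0.201), FASN (fatty acid synthase) by 1.64 (SE 0.287), ACACA by 1.33 (SE 0.242) and ACSS2 by 1.47 (SE 0.268), with FDR values from 4.24e-07 to 1.78e-05. All 4 lie beyond -0.45, the lower end of the 95% interval of S100B in that contrast. The difference between these genes and S100B was not itself tested.

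LEP, the satiety hormone of fat, was higher in HE heifers at 12 months and not called in gestation: HE-LE overall was 1.37 (SE 0.254, FDR = 3.32e-05) at the first and -0.25 (SE 0.209, FDR = 0.606) at the second time. The mean of LEP in HE heifers was 529 ± 174 CPM at 12 months and 448 ± 167.5 CPM in gestation, and in LE heifers it was 224 ± 154 and 547 ± 241 CPM (n = 12 each). As in S100B, the HE mean was thus the lower one in gestation and the LE mean the higher one. Averaged over the diets LEP rose between the times by 0.54 (SE 0.183, FDR = 0.0123). CIDEC was higher in HE heifers at 12 months by 0.54 (SE 0.162, FDR = 0.0203) and had a difference of -0.15 (SE 0.136, FDR = 0.651) in gestation. Of 14 adipocyte genes only these 2 had identifiers. Over all genes 4.69% were called higher in HE heifers at 12 months, and 3.74% were called in gestation. Both identifiers come from tables that the study chose on the samples of 12 months. The direction of these 2 genes at that age, and their likeness to S100B there, is therefore not independent evidence.

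**Figure D4:**
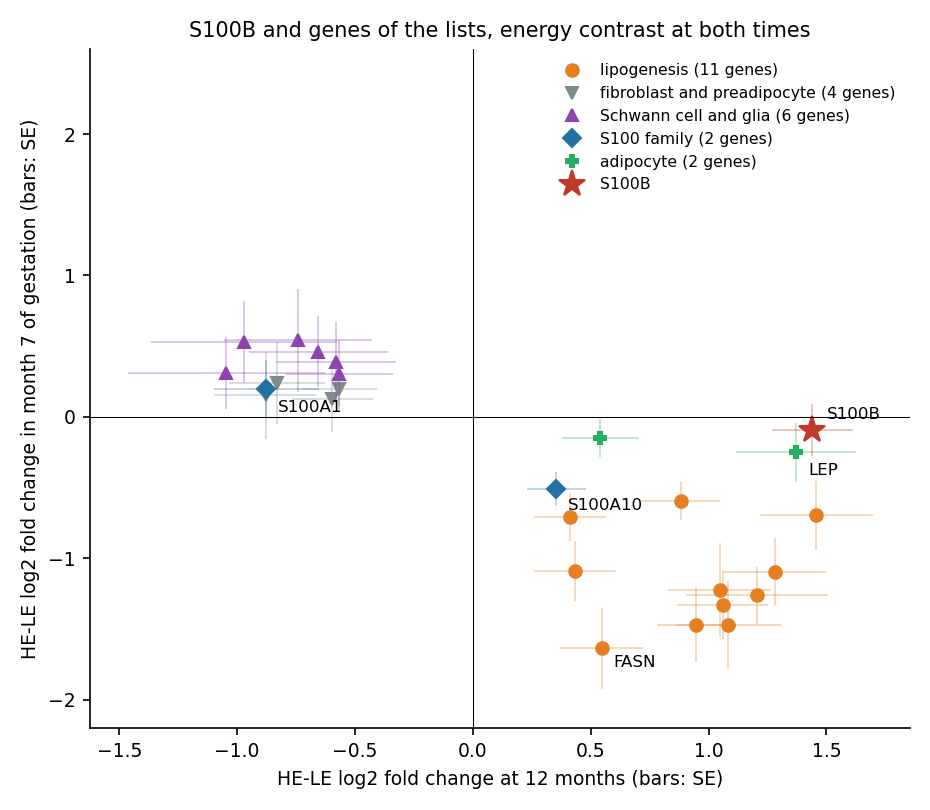
HE-LE log2 fold change at 12 months (horizontal axis) against month 7 of gestation (vertical axis) for S100B (star) and the list genes with identifiers, with SE bars in both directions. The 11 lipogenic genes (orange) lie to the right and below 0, S100B (1.44 and -0.09), LEP and CIDEC to the right and near 0, and S100A1, the collagen genes with DCN and the Schwann cell genes to the left and slightly above 0.

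S100B is itself a Schwann cell marker, so the other genes of that cell type were followed with it. Of 15 genes, 6 are given here (SOX10, CDH19, ERBB3, L1CAM, SCN7A and GFRA3), each read in every sample at 0.446 CPM or more. Their summed level was 13.2 to 56.4 CPM in HE heifers (median 22.5) and 17.3 to 189 CPM in LE heifers (median 33.1) at 12 months. In gestation it was 15.2 to 110 CPM in HE (median 37.2) and 18.4 to 70.3 CPM in LE heifers (median 30.6). In HE-LE overall at 12 months 0 of 6 was called, against 7.2% of all genes. The 6 log2 fold changes lay between -1.05 and -0.57, opposite in sign to that of S100B. In LPHE-LPLE 6 of the 6 were called lower in LPHE heifers, against 2.63% of all genes, among them SCN7A (a sodium channel of glia) by 2.18 (SE 0.593, FDR = 0.0136), ERBB3 (the neuregulin receptor) by 1.26 (SE 0.370, FDR = 0.0254), L1CAM (an adhesion protein of nerves) by 1.13 (SE 0.333, FDR = 0.0254) and CDH19 (a cadherin of the Schwann cell lineage) by 1.41 (SE 0.429, FDR = 0.0323). These calls rested in part on single heifers. LPLE heifer 8, which had the lowest S100B at 12 months (77.5 CPM), had 91.7 CPM of GFRA3 against 1.85 to 6.37 CPM in the other LPLE heifers, 23.4 CPM of SCN7A against 0.775 to 4.30 CPM, and 20.2 CPM of CDH19 against 2.30 to 9.28 CPM. Without heifer 8 only ERBB3 (-1.04, FDR = 0.0858) and L1CAM (-0.88, FDR = 0.09996) of the 6 were called in LPHE-LPLE, while SCN7A was at -1.16 (FDR = 0.164), CDH19 at -1.04 (FDR = 0.136), SOX10 at -1.29 (FDR = 0.101) and GFRA3 at -0.20 (FDR = 0.806). Leaving out LPHE heifer 5 also left 2 of the 6 called, LPHE heifer 16 or 24 left 4, and LPLE heifer 18 left 5. In HE-LE overall at 12 months, where 0 was called, 4 of the 6 were called lower without LPHE heifer 12 or without HPHE heifer 15, and 2 without LPLE heifer 4. The study picked these members from LPHE-LPLE at 12 months and the list is given only in part, so the count does not speak for all 15 genes. In gestation 0 of 6 was called in HE-LE overall (3.74% of all genes) or in LPHE-LPLE (1.05% of all genes), with a median HE-LE difference of 0.42.

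The collagen matrix genes given here were lower in HE heifers at 12 months. COL1A1, COL1A2, COL3A1 and DCN (decorin), 4 of 9 fibroblast genes, were all lower in HE heifers, by -0.57 to -0.88 on the log2 scale (FDR from 0.00286 to 0.0159), when 2.51% of all genes were called lower. In gestation 0 of the 4 was called (0.12 to 0.24), against 3.74% of all genes, a count from which nothing is read. The study picked these 4 genes on the same samples of 12 months, so their direction at that age is not independent evidence. Of 7 skeletal muscle genes 4 had identifiers, and 2 of these, MYH2 and MYH7 (myosin heavy chains), were called lower in HE heifers at 12 months, by -4.81 (SE 1.49, FDR = 0.0246) and -1.69 (SE 0.559, FDR = 0.0390). The quasi-likelihood F test called 0 of them, and with 1 heifer left out the call of MYH7 was lost in 10 of 24 fits and that of MYH2 in 1, without HPLE heifer 9. The level of MYH2 at 12 months had a median of 0 CPM in HE and 0.689 CPM in LE heifers, with means of 3.65 and 4.05 CPM. By diet its mean was 0.00849 CPM in LPHE, 4.19 in LPLE, 7.28 in HPHE and 3.91 in HPLE heifers. The highest level, 36.3 CPM, was that of an HPHE heifer, so the call does not describe all HE heifers. Of 5 smooth muscle genes 3 had identifiers, and 0 was called in HE-LE overall at either time. Of all genes, 7.2% were called in that contrast at 12 months and 3.74% in gestation. Genes of melanocytes, endothelium and macrophages had no identifier paired with a symbol and were not analysed here.

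The genes with the pattern most like S100B were found by Pearson r of log2 CPM over the 24 heifers of a time, out of 13338 other genes at 12 months and 13402 in gestation. A gene without a symbol is here one whose identifier was not paired with a symbol. Only 1003 of 24616 identifiers were paired, from tables that the study chose on the samples of 12 months. The named genes are therefore not a fair sample of those with a high or low r. These correlations are descriptions: heifers of a diet share that diet and the energy difference of 12 months enters r at that age. At 12 months r reached 0.92 and exceeded 0.8 for 123 genes. The highest were FUNDC2 (an outer mitochondrial membrane protein), BRE (a subunit of a deubiquitinating complex) and LDHB (lactate dehydrogenase B), each with 0.92, followed among the first 10 by GSTM1 (glutathione S-transferase, 0.91), LYRM9 (0.90), SRD5A1 (steroid 5-alpha-reductase, 0.89), SEPW1 (selenoprotein W, 0.89), BAIAP2L1 (a membrane-bending protein, 0.88) and 2 genes without a symbol. After the diet means were removed, r of these 8 named genes was 0.63 to 0.82. The lowest r were those of JDP2 (a transcriptional repressor, -0.81), KLF4 (a transcription factor, -0.78), ISLR (a secreted protein of mesenchymal cells, -0.78) and 2 genes without a symbol.

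In gestation, where no diet contrast of S100B was called, the highest r was 0.79 for STX8 (syntaxin 8, a vesicle fusion protein). PECR (peroxisomal trans-2-enoyl-CoA reductase) and IMMP2L (a peptidase of the inner mitochondrial membrane) had 0.72 each, and the other 7 of the first 10 had no symbol. Of the 5 lowest, PLAGL1 (an imprinted zinc finger factor) had -0.67 and the other 4 had no symbol. PLAGL1 was also at -0.75 at 12 months.

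Of the 134 genes in the top 1% of r at 12 months and the 135 in gestation, 20 were shared, that is 14.9% and 14.8%. By the smaller of both r, the first was STX8 (0.80 at 12 months and 0.79 in gestation; 0.67 and 0.83 after the diet means were removed). IMMP2L (0.81 and 0.72), ATOX1 (a copper chaperone, 0.86 and 0.66), RFC3 (a clamp loader of DNA replication, 0.80 and 0.64) and CCDC3 (a secreted protein of fat and vessels, 0.82 and 0.64) came next among the genes with a symbol. FUNDC2 (0.92 and 0.63), BRE (0.92 and 0.63) and CRYZ (a quinone reductase, 0.81 and 0.62) closed the first 10, which also held ENSBTAG00000025001 and ENSBTAG00000003975. In HE-LE overall in gestation 0 of these 10 genes was called, against 3.74% of all genes, a count from which nothing is read. At 12 months 7 of the 10 were called, all higher in HE heifers, and those not called, STX8 among them (0.28, FDR = 0.0919), had log2 fold changes of 0.19 to 0.40. Over all genes 4.69% were called higher, but these 10 genes were picked by an r that holds the energy difference of 12 months by which S100B was chosen, so nothing is read from their count.

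For the list genes r to S100B was as follows. Lipogenic genes had r from 0.46 to 0.83 with S100B at 12 months and from 0.04 to 0.54 in gestation, where SCD (stearoyl-CoA desaturase) was the highest. After the diet means were removed, their r ran from -0.33 (ACLY) to 0.58 (ME1) at 12 months and from -0.02 (MLXIPL) to 0.63 (SCD) in gestation. CIDEC and LEP, with 0.83 and 0.82 at 12 months, had 0.13 and 0.17 in gestation, and without the diet means 0.74 and 0.53 at 12 months and 0.11 and 0.18 in gestation. BSG had 0.78 and 0.57, and 0.40 and 0.64 without the diet means. The 6 Schwann cell genes had a negative r at both times, from -0.65 to -0.38 and from -0.47 to -0.12, and without the diet means from -0.53 to -0.21 and from -0.50 to -0.10. The 4 collagen matrix genes had r from -0.63 to -0.52 at 12 months and from 0.26 to 0.41 in gestation. Without the diet means these were -0.26 to -0.09 at 12 months and 0.26 to 0.41 in gestation. S100A1 had -0.66 and -0.23 (-0.15 and -0.22 without the diet means). In the same order S100A10 had 0.61 and 0.44 (0.13 and 0.54), and ANXA6 0.58 and 0.53 (0.09 and 0.57). Skeletal muscle genes had -0.42 to -0.29 at 12 months and 0.08 to 0.14 in gestation (-0.36 to -0.25 and 0.06 to 0.13). Smooth muscle genes had -0.34 to -0.31 and -0.11 to 0.01 (-0.18 to -0.15 and -0.12 to 0.01).

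In the RefSeq gene table of the ARS-UCD2.0 assembly, which is not the assembly the reads were counted on, S100B lies on chromosome 1 next to PCNT and DIP2A on one side and PRMT2 and FBXO25 on the other, and 0 genes of that table overlap it.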

How the data were processed

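The deposited values are raw counts of reads per Ensembl gene; per the labels and the study's methods the authors trimmed paired-end reads with cutadapt (version 1.3), mapped them with TopHat2 (version 2.0.12) on the bovine assembly UMD3.1 and counted them with HTSeq, without normalization. Summary rows of the counting tool (38.8 to 61.0% of its total per sample) were left out. Genes that reached 2 CPM in 3 or more samples were fitted with diet and genetic group by glmFit of edgeR (version 4.0.16, R version 4.3.3) after TMM normalization, separately for each sampling time, and tested with the likelihood ratio test. P-values were adjusted over all genes tested by the Benjamini-Hochberg method. FDR thresholds were 0.05 for overall contrasts and 0.1 for pairwise contrasts and interactions. The SE was obtained by dividing the log2 fold change by the root of its likelihood ratio statistic. Sampling times were compared over 48 samples with diet by time and genetic group. That fit had no term for the heifer, so both samples of a heifer entered as independent. Permutation tests used log2 of CPM plus 0.5, exact for 6 against 6 heifers and otherwise with 100000 resamples.

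Heifer numbers pair the samples, since each heifer gave both; deviations of the 2 samples of a heifer from their group means correlated with r from -0.06 to 0.58 (median 0.30). Within a group all samples differed beyond sampling noise (lowest chi-square per degree of freedom 38.3 over 120 pairs). Symbols come from the study's own pairs of identifiers and symbols (1003 used here), 13 lists of genes were used, of which a few members are not reported here, and named genes are the S100 family, up to 4 list members with the smallest p per contrast, and the genes with the highest and lowest r to S100B; other list members are named to identify a list or its range. S100B and the lists were chosen with earlier results of these data known. Alternatives were edgeR's quasi-likelihood F test, DESeq2 (version 1.42.0), RLE size factors, library size only, no filter, no genetic group, 1 fit of all samples, each heifer left out, the heifer as a block, and estimateDisp dispersions; the last, and leaving out heifers for list genes, were chosen after seeing the data. The scripts were tested on simulated data. No sequences were used here.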

Additional observations from a re-analysis of the deposited data

Results flagged for a closer look

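In S100B the within-heifer log2 change to gestation was below 0 in every HE heifer (mean -1.38 in LPHE, range -2.55 to -0.15, and -1.24 in HPHE, range -1.81 to -0.76) and above 0 in every LPLE heifer (mean 0.50, range 0.02 to 1.47). This opposite movement draws attention but was not tested, because the levels at 12 months by energy level chose the gene.

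Among 24 groups of 6 heifers (S100B, S100A1 and S100A10 at each diet and time), 4 had 1 heifer far above the rest. The limit is Dixon's 95% critical value, which about 1 in 20 independent groups passes by chance, and the groups here share heifers and are on the CPM scale. None of them concerned S100B. S100A1 had its highest heifer at 8.19 CPM in HPHE at 12 months (next 4.52), at 14.7 CPM in HPLE at 12 months (next 8.78) and at 22.6 CPM in HPLE in gestation (next 12.4). S100A10 in LPLE at 12 months had its highest heifer at 789 CPM (next 574).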

How the results depend on the processing

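The result that S100B was lower in gestation than at 12 months, and each uncalled contrast of S100B, kept its direction and its side of the threshold under all 108 combinations of a result and an alternative setting other than leaving out a heifer. The energy values at 12 months, which carry no test, entered with their direction and size. They counted as kept if the log2 fold change lay within 0.462, the SD within diets, of the main fit. With the heifer as a block, the pairing that the labels give, the difference between the times was -0.52 (FDR = 0.0147), and it changed no call. With 1 heifer left out it ranged from -0.57 to -0.44 and stayed called. Leaving out 1 heifer turned the sign of some values that were not called: HPHE-HPLE in gestation ranged from -0.21 to 0.0848, the difference of both energy contrasts in gestation from -0.28 to 0.0664, HMY-LCM in gestation from -0.12 to 0.0611, and the difference of the energy effect between genetic groups at 12 months from -0.0016 to 0.33. The r between the times ranged from -0.22 to 0.41 in HE and from -0.19 to 0.24 in LE heifers. HE-LE overall ranged from 1.36 to 1.49 at 12 months and from -0.20 to -0.03 in gestation.

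Counts of called genes depended more on the test. HE-LE overall called 960 genes at 12 months, 1598 with DESeq2 and 1465 with all samples in the fit, and 501 in gestation, 1151 with DESeq2 and 801 with estimateDisp. HP-LP overall at 12 months called 3 genes, 0 with the quasi-likelihood F test and 7 without a filter, and HMY-LCM 1, 0 with that test and with estimateDisp and 2 with DESeq2. LPHE-LPLE at 12 months called 944 genes, 1615 with DESeq2 and 1533 with all samples. LPHE-LPLE in gestation called 141 genes, 0 with the quasi-likelihood F test, 423 with DESeq2, 71 without the genetic group in the model and 59 with all samples. The depth of S100B was not limiting, while 6 heifers per diet set the width of its intervals. Of 9 lipogenic genes called at 12 months, the quasi-likelihood F test and the fit without a filter each called 8, and of 10 in gestation the F test called 9.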
